A study of Mus musculus with 9 samples.

Results

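The LDL receptor family was followed here across whole-tumor RNA in 9 samples, through the 9 genes Lrp2, Vldlr, Lrp8, Lrp1, Lrp1b, Lrp4, Lrp5, Lrp6 and Lrp10. They were chosen by symbol among 54429 symbols in the table, and Lrp2 was picked because its counts were already known to be higher after drug treatment, so its levels are described and not tested. All 9 symbols were found, 8 had a count in at least 1 library and the same 8 passed the filter on low counts, which left 7 members besides Lrp2 to test among 15931 genes.

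Tumors came from NB9464, a mouse neuroblastoma cell line, of which 4000000 cells were placed under the skin of wild-type C57BL/6 mice aged 4 to 6 weeks. Once tumors measured 250 mm3, mice received vehicle (Vehicle, n = 3), the SYK inhibitor R788 together with an antibody to PD-L1 (R788 + PD-L1, n = 3), or the same 2 agents with radiation (Radiation + R788 + PD-L1, n = 3, hereafter irradiated). R788 was given at 50 mg/kg, 5 times a week, radiation at 10 Gy, and the schedule named 4 dosing days from day 28 to day 37. Every tumor was harvested whole, so tumor cells and host cells are read together, and in such bulk RNA fewer cells of a type and less RNA per cell cannot be told apart. No group that received R788, the antibody or radiation alone was analysed here, so the effects of R788 and of the antibody cannot be told apart. Radiation was read only as an addition to both agents. What the Vehicle mice received in place of the antibody was not given in the labels.

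Members of this family are single-pass membrane proteins whose outer part holds LDL receptor class A repeats, which bind ligands. In most members, though not in Lrp10, these stand beside EGF-like and propeller modules. Most of the receptors carry their cargo into endosomes by clathrin-coated pits and return to the surface, and they take up lipoproteins, proteases bound to their inhibitors, and carriers of vitamins. Some act mainly in signaling: Lrp5 and Lrp6 are Wnt co-receptors, Vldlr and Lrp8 receive reelin, Lrp4 receives agrin, and megalin, the product of Lrp2, takes up Sonic hedgehog and is best known from absorptive epithelium such as the renal proximal tubule.

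Libraries held 18276683 to 23397886 estimated counts. Irradiated replicate 1 stood apart from the rest: its normalization factor was 0.743 against 0.975 to 1.12 elsewhere, the share of mitochondrial genes among its counts was 1.97% where other libraries had 3.48% to 5.71%, and 18263 genes were detected in it against 19732 to 22129. Irradiated replicate 3 held the highest summed level of macrophage markers, 1346 CPM (counts scaled to the normalized library size) against 208 to 468 in the other 8 libraries, and of T cell markers, 43.2 CPM against 3.50 to 29.8. The noradrenergic markers that define neuroblasts were partly absent, since Th had 0 counts in all 9 libraries, Dbh had 1 and Phox2a 6 in all, while Hand2 had 88232 and Mycn 30188. Where leaving out 1 of these irradiated libraries turned or strongly shrank a value described here, the value without it is in most cases given beside it.

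Promoter sequence is shown for Lrp2 and Vldlr because their levels varied most between libraries. RefSeq's table of promoters for GRCm38.p6 held 5 of the 9 members (Lrp2, Vldlr, Lrp8, Lrp1 and Lrp10), and Lrp1b, Lrp4, Lrp5 and Lrp6 were not in it. Each stretch reads 5′ to 3′ on the gene's own strand and stops before the first annotated transcribed base: chr2:69586066-69586279 on the minus strand for Lrp2 and chr19:27216234-27216483 on the plus strand for Vldlr, where the first of 2 listed starts was taken. For Lrp2 this leaves out the 36 bases nearest to the RefSeq start, since GENCODE's transcript begins before it. Capitals mark the GC box, GGGCGG on either strand.
Lrp2: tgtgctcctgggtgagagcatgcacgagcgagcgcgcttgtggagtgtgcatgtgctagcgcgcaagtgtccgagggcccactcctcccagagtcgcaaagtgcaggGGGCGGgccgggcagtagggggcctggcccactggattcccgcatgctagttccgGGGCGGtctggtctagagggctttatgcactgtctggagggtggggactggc
Vldlr: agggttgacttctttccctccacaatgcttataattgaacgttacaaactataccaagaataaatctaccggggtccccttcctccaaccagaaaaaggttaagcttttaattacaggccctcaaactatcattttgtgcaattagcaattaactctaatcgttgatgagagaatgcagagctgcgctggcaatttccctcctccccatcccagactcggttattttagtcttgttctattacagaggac
In the 250 bases before its RefSeq start, the Lrp2 promoter was 66.4% G or C with 18 CpG dinucleotides, against medians of 52.4% and 6 over 32851 promoters. It held 2 GC boxes, a motif present in 32.7% of those promoters, at 143 and 88 bases from the start, and neither TATAAA (12.4% of promoters), CACGTG (6.02%) nor CCAAT (33.8%) on either strand. The stretch before the first Vldlr start was 41.6% G or C with 5 CpG and held none of the 4 motifs. The stretch before the second Vldlr start had 66.4% G or C, 18 CpG, 1 GC box and 1 CCAAT, so a contrast with Lrp2 depends on which start is taken. These matches describe letters only and were not related to the counts.

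Lrp2 was close to its detection floor in Vehicle tumors and higher in every treated tumor. The gene (ENSMUSG00000027070.14) lies at chr2:69424340-69586065 on the minus strand in mm10, with 16.7 kb of exon and no overlapping annotated gene. It had 24, 9 and 13 counts in Vehicle replicates 1 to 3, which is 1.33, 0.404 and 0.712 CPM. It had 662, 259 and 588 counts, or 29.2, 9.90 and 24.1 CPM, under R788 + PD-L1. In the irradiated group it had 37, 169 and 147 counts, or 2.73, 8.57 and 6.71 CPM. The 3 groups formed 3 separate ranges, with R788 + PD-L1 on top, irradiated tumors between and Vehicle at the bottom, although only a narrow gap parted the lowest R788 + PD-L1 library (9.90 CPM) from the highest irradiated one (8.57 CPM).

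**Figure D1:**
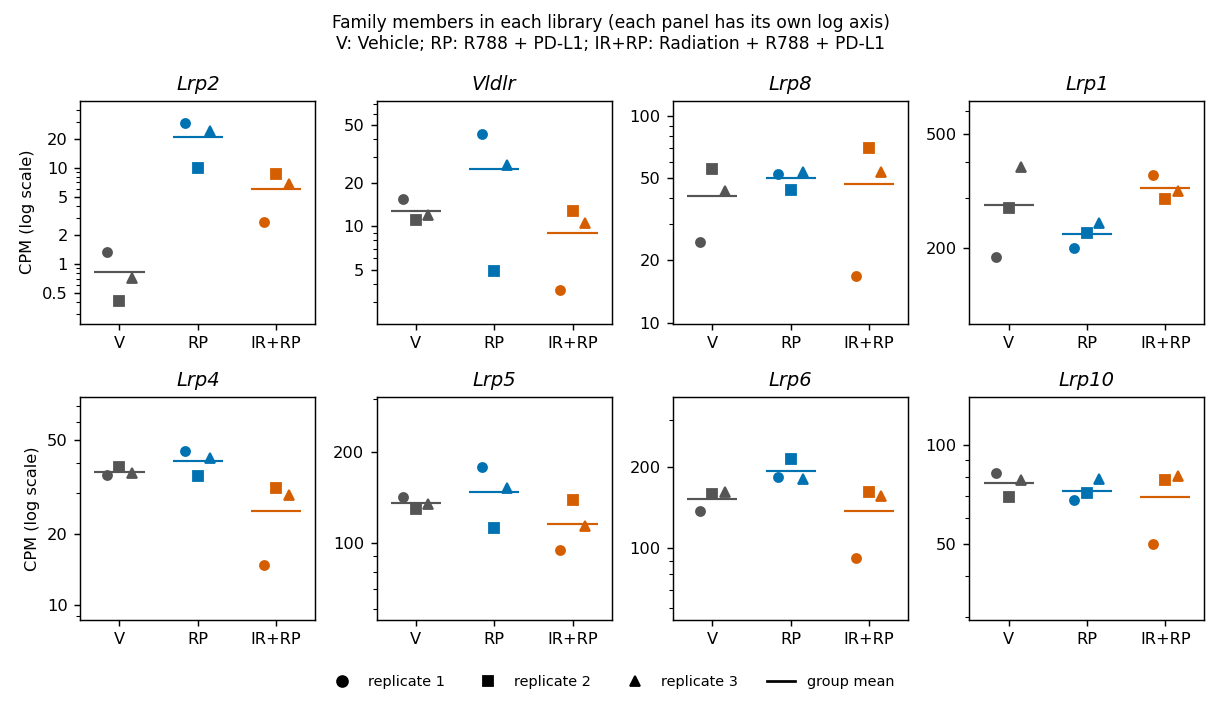
Normalized level (CPM, log axis, own scale in each panel) of the 8 family members with counts in the 9 libraries, with replicates as symbols and group means as lines. Lrp2 lies at 0.404 to 1.33 CPM in Vehicle, 9.90 to 29.2 under R788 + PD-L1 and 2.73 to 8.57 in irradiated tumors, while irradiated replicate 1 is the lowest of the 9 libraries for Vldlr, Lrp8, Lrp4, Lrp5, Lrp6 and Lrp10.

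Mean levels of Lrp2 were 0.814 ± 0.469 CPM in Vehicle, 21.1 ± 10.0 under R788 + PD-L1 and 6.01 ± 2.99 in irradiated tumors (SD, n = 3 each). The mean was thus 25.9-fold higher than Vehicle under R788 + PD-L1 and 7.38-fold higher in irradiated tumors, and the lowest treated libraries exceeded the highest Vehicle library by 7.47-fold and 2.06-fold. Fitted log2 fold changes were 4.70 ± 0.65 (SE) for R788 + PD-L1 against Vehicle, 2.89 ± 0.62 for irradiated against Vehicle and -1.80 ± 0.56 for irradiated against R788 + PD-L1. Without irradiated replicate 1 the last 2 were 3.27 and -1.45. Spread within groups was wide, with a coefficient of variation of 57.6%, 47.5% and 49.7% in the order above, and within R788 + PD-L1 replicate 2 was the lowest.

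Markers of the epithelium best known for megalin were mostly absent, with Cubn as the one that could be tested. Of 7 such markers, 4 had 0 counts in all 3 libraries of each group, namely Pax8, Slc34a1, Slc5a2 and Umod, and the summed level of all 7 ranged from 0.443 to 1.55 CPM over the 9 libraries. Cubn encodes cubilin, the peripheral membrane partner with which megalin shares ligands. Cubn stood at 0.17, 0.09 and 0.33 CPM in Vehicle, 0.71, 0.99 and 1.07 under R788 + PD-L1 and 0.15, 0.91 and 0.96 in irradiated tumors. For Cubn all R788 + PD-L1 libraries lay above Vehicle, as for Lrp2, but Vehicle held only 3, 2 and 6 counts of it, near the floor of 3 counts. Amn, another of the 7 markers, had 8, 1 and 3 counts in Vehicle and 6, 0 and 4 under R788 + PD-L1. Summed levels of the 7 overlapped, at 0.994 to 1.27 CPM under R788 + PD-L1 against 0.658 to 1.26 in Vehicle. The log2 fold change of Cubn was 2.23 ± 0.79 for R788 + PD-L1 against Vehicle (unadjusted p = 0.0171, edgeR adjusted p = 0.281) and 1.81 ± 0.79 for irradiated against Vehicle (unadjusted p = 0.0438, adjusted p = 0.367), so neither passed the adjusted test. Cubn passed the filter on low counts only through treated libraries, so a higher value there was favored in advance. For T cell and macrophage markers the summed levels of R788 + PD-L1 and Vehicle did not overlap, whereas those of endothelial markers did. T cell markers summed to 15.3 to 29.8 CPM under R788 + PD-L1 against 3.50 to 8.94 in Vehicle, and macrophage markers to 437 to 468 CPM against 208 to 405. By edgeR 0 of 4 and 0 of 10 tested markers were called, and 1 and 0 by DESeq2 (0.678% and 4.86% of all genes). Groups did not overlap for 0 of 4 and 3 of 10, against 30.1% of all genes. Cd4 made up 22.9, 2.03 and 12.2 CPM of the T cell sums under R788 + PD-L1, against 3.09, 0.898 and 0.987 in Vehicle. Cd3e measured 0.18, 0.19 and 0.04 CPM under R788 + PD-L1 and 0.17, 0.13 and 0.27 in Vehicle. Endothelial markers summed to 51.5 to 140 CPM against 41.8 to 52.6, and all 8 had a positive log2 fold change (median 0.81). Of these, 4 had an unadjusted p under 0.05 (11.7% of all genes), with 0 called by edgeR and 1 by DESeq2. Without R788 + PD-L1 replicate 2, 6 endothelial markers were higher and 2 lower (median 0.55), with 1 at an unadjusted p under 0.05. The part of these cell types in the Lrp2 difference was not tested.

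Under R788 + PD-L1, replicate 2 differed from its group in more than Lrp2. It held the group's highest sums of fibroblast markers (5458 CPM against 2960 and 3461), endothelial markers (140 against 51.5 and 76.5) and keratinocyte markers (65.7 against 4.06 and 24.2), and its Lrp2 and Vldlr levels were the group's lowest. Without that library the Lrp2 log2 fold change against Vehicle was 5.03.

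Among the lipoprotein and reelin receptors, Vldlr (ENSMUSG00000024924.14, chr19:27216484-27254231, plus strand), the very low density lipoprotein receptor, varied most after Lrp2. It measured 15.5, 11 and 12 CPM in Vehicle, 43.4, 4.93 and 26.7 under R788 + PD-L1, and 3.61, 12.8 and 10.6 in irradiated tumors. The R788 + PD-L1 libraries thus lay on both sides of the Vehicle range. Its log2 fold change was 0.96 ± 0.67 for R788 + PD-L1 against Vehicle (95% interval -0.55 to 2.48, edgeR adjusted p = 0.668), -0.50 ± 0.68 for irradiated against Vehicle (adjusted p = 0.720) and -1.46 ± 0.68 for irradiated against R788 + PD-L1 (adjusted p = 0.282). Single libraries moved these values without a call. The first was 0.30 without R788 + PD-L1 replicate 1 and 1.45 without replicate 2, the third was -0.81 and -1.95 without the same libraries, and the second was -0.11 without irradiated replicate 1.

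Lrp8 (ENSMUSG00000028613.14, chr4:107802261-107876840, plus strand) encodes the reelin receptor also known as ApoER2. It measured 24.7, 55.2 and 43.1 CPM in Vehicle, 52.6, 43.6 and 53.7 under R788 + PD-L1, and 16.8, 69.8 and 53.6 in irradiated tumors. Its groups overlapped in all 3 comparisons. The irradiated group held both its lowest and its highest library, and the log2 fold changes of 0.28 ± 0.46, 0.19 ± 0.46 and -0.10 ± 0.46 had edgeR adjusted p of 0.870, 0.849 and 0.923. Without irradiated replicate 1 the last turned to 0.31.

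Lrp1 (ENSMUSG00000040249.15, chr10:127538161-127621148, minus strand), which clears apolipoprotein E remnants and complexes of proteases with their inhibitors, was the member with most counts. It measured 186, 276 and 383 CPM in Vehicle, 200, 226 and 245 under R788 + PD-L1, and 359, 297 and 315 in irradiated tumors. The lowest and the highest of the 9 libraries were both Vehicle, and the 2 treated groups did not overlap. The log2 fold change was -0.33 ± 0.26 for R788 + PD-L1 against Vehicle (edgeR adjusted p = 0.708), 0.20 ± 0.26 for irradiated against Vehicle (adjusted p = 0.706) and 0.53 ± 0.26 for irradiated against R788 + PD-L1 (95% interval -0.04 to 1.11, adjusted p = 0.293). Lrp1b (ENSMUSG00000049252.17, chr2:40595246-42653624, minus strand), its closest relative and the longest member at 23.8 kb of exon, had 0 counts in all 9 libraries, which at 3 counts per library allows up to 0.115 to 0.221 CPM.

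The Wnt co-receptors Lrp5 (ENSMUSG00000024913.16, chr19:3584828-3686564, minus strand) and Lrp6 (ENSMUSG00000030201.15, chr6:134446476-134566965, minus strand) varied by 1.90-fold and 2.32-fold between the lowest and the highest library. Lrp5 measured 141, 129 and 134 CPM in Vehicle, 179, 112 and 151 under R788 + PD-L1, and 94.3, 138 and 114 in irradiated tumors. Lrp6 measured 137, 159 and 162 CPM in Vehicle, 184, 214 and 181 under R788 + PD-L1, and 92.3, 162 and 156 in irradiated tumors. The R788 + PD-L1 range of Lrp6 lay above both other groups, whereas Lrp5 overlapped everywhere. For Lrp6 the log2 fold change was 0.34 ± 0.23 for R788 + PD-L1 against Vehicle (95% interval -0.18 to 0.85, edgeR adjusted p = 0.651), -0.16 ± 0.23 for irradiated against Vehicle (adjusted p = 0.745) and -0.49 ± 0.23 for irradiated against R788 + PD-L1 (adjusted p = 0.282). Without irradiated replicate 1 the second turned to 0.09 and the last was -0.27. For Lrp5 the 3 log2 fold changes were 0.13, -0.22 and -0.35, each ± 0.22, with edgeR adjusted p from 0.391 to 0.880. Over the alternative fits the second ranged from -0.38 to -0.07 and the third from -0.52 to -0.19.

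Lrp4 (ENSMUSG00000027253.15, chr2:91457511-91513779, plus strand), the agrin receptor of the neuromuscular junction, was the member with the lowest unadjusted p among those tested. It measured 35.8, 38.4 and 36.2 CPM in Vehicle, 44.8, 35.2 and 41.9 under R788 + PD-L1, and 14.8, 31.3 and 29.2 in irradiated tumors, where all 3 libraries lay below the other 6. The log2 fold change was -0.69 ± 0.27 for irradiated against R788 + PD-L1 (95% interval -1.31 to -0.08, unadjusted p = 0.0305, edgeR adjusted p = 0.246) and -0.55 ± 0.27 for irradiated against Vehicle (adjusted p = 0.400). Irradiated replicate 1 carried much of that distance, since the values were -0.42 and -0.25 without it. Against Vehicle, R788 + PD-L1 gave 0.14 ± 0.27 (adjusted p = 0.890).

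Lrp10 (ENSMUSG00000022175.9, chr14:54464137-54471497, plus strand), a small member found mainly in the Golgi and endosomes, was the steadiest. It measured 81.9, 69.2 and 78.0 CPM in Vehicle, 67.9, 71.2 and 78.6 under R788 + PD-L1, and 50.2, 78.0 and 80.1 in irradiated tumors. Apart from irradiated replicate 1, all libraries fell between 67.9 and 81.9 CPM. The log2 fold changes were -0.07, -0.14 and -0.06, each ± 0.21, with edgeR adjusted p of 0.935, 0.756 and 0.887. Without irradiated replicate 1 the last 2 turned to 0.08 and 0.13. An antisense gene, Gm10366, shares 475 exonic bases with Lrp10, and strand-specific counting was not stated, so reads of the pair cannot be told apart.

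**Figure D2:**
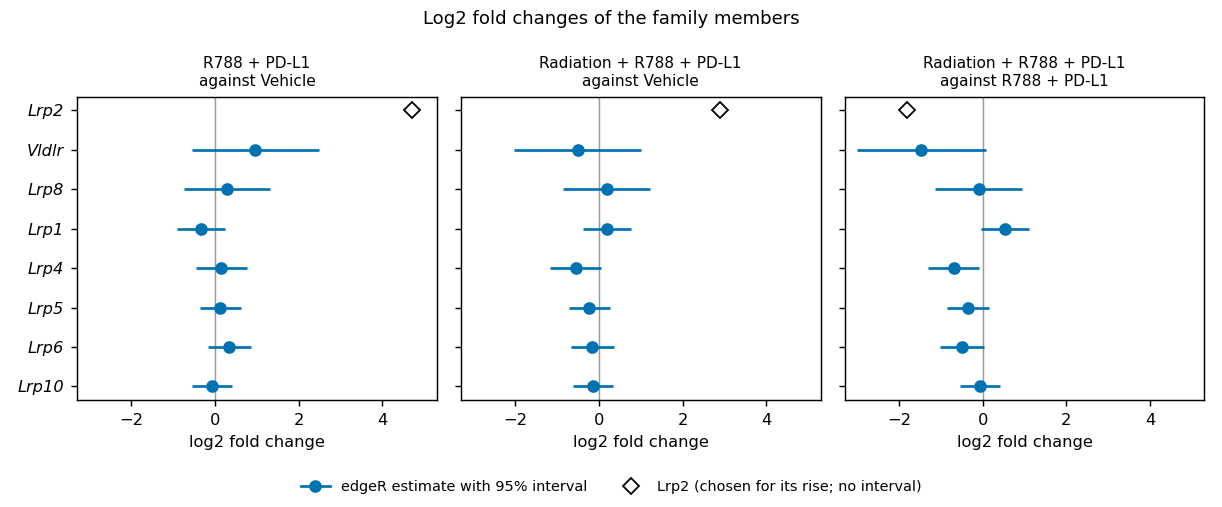
Log2 fold changes (x axis) of the family members in the 3 comparisons, with 95% intervals for the 7 tested members and a bare diamond for Lrp2. Lrp2 stands at 4.70, 2.89 and -1.80, while the intervals of the other members include 0 except that of Lrp4 in irradiated against R788 + PD-L1 tumors (-1.31 to -0.08).

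None of the 7 other members that passed the filter was called in any comparison. By edgeR's quasi-likelihood test with Benjamini-Hochberg adjustment over all genes, 0 of 7 passed for R788 + PD-L1 against Vehicle, where 0.678% of all genes did, 0 of 7 for irradiated against Vehicle (0.0439% of all genes) and 0 of 7 for irradiated against R788 + PD-L1 (0.00628%). An unadjusted p under 0.05 was found for 0, 0 and 1 of the 7, against 11.7%, 13.2% and 18.4% of all genes, and DESeq2 also called 0, 0 and 0 of the 7 where it called 4.86%, 3.87% and 5.76% of all genes. Groups did not overlap for 1 of 7 (Lrp6), 1 of 7 (Lrp4) and 3 of 7 (Lrp1, Lrp4 and Lrp6), against 30.1%, 20.5% and 27.4% of all genes. Median log2 fold changes of the 7 were 0.14, -0.16 and -0.35, beside -0.02, 0.05 and 0.04 over all genes. Without irradiated replicate 1 the second median turned to 0.08, with 4 higher and 3 lower in place of 2 and 5, and the third was -0.22. The first was 0.06 and the third -0.19 without R788 + PD-L1 replicate 1. Few genes were called at all in the last 2 comparisons, and a member that missed the threshold is not shown to be unchanged.

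Levels can be compared between members only per length, and on that scale Lrp10, Lrp1, Lrp5 and Lrp6 lay above the other members. Median CPM per kb of exon over the 9 libraries was 17.5 for Lrp10, 15.6 for Lrp1, 13.8 for Lrp5 and 11.8 for Lrp6, then 5.01 for Lrp8, 3.41 for Lrp4, 1.19 for Vldlr and 0.402 for Lrp2. Within each group, neighbors among the upper 4 overlapped in range, except Lrp5 and Lrp6 in Vehicle. Lrp8 and Lrp4 overlapped in every group. In all 9 libraries the upper 4 exceeded the other members. Lrp2 was the lowest member with counts in all libraries but R788 + PD-L1 replicate 2, in which Vldlr was lower. It made up 0.0751% of the family's summed CPM per kb in Vehicle, 1.75% under R788 + PD-L1 and 0.541% in irradiated tumors. The highest library exceeded the lowest by 72.2-fold for Lrp2, 12.0-fold for Vldlr, 4.15-fold for Lrp8 and 1.63-fold to 3.04-fold for the other 5.

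**Figure D3:**
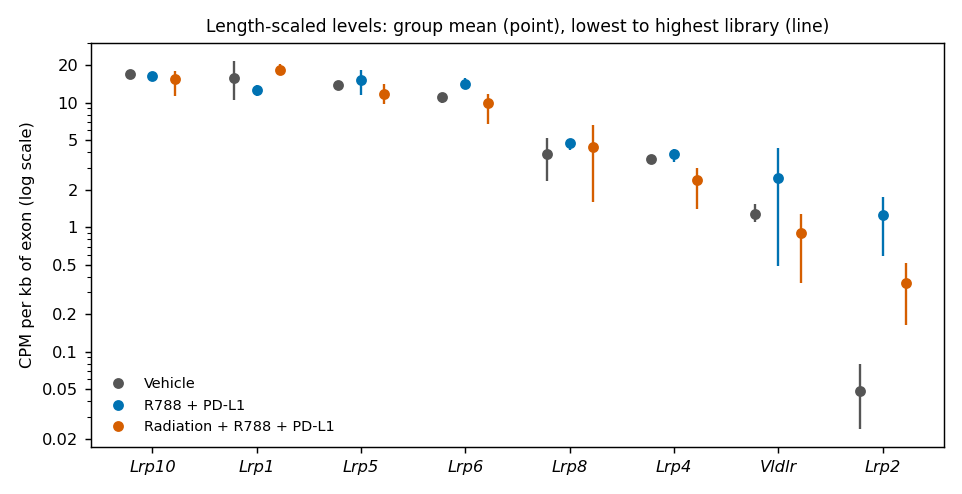
Length-scaled level (CPM per kb of exon, log axis) of the 8 members with counts, by group, with means as points and the lowest to highest library as lines. Lrp10, Lrp1, Lrp5 and Lrp6 lie together at the top, and Lrp2 at the bottom ranges from means of 0.0487 in Vehicle to 1.26 under R788 + PD-L1.

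No other member followed Lrp2 closely across libraries. Over the 9 libraries, Pearson's r of log2 CPM with Lrp2 was 0.41 for Lrp6, 0.40 for Vldlr, 0.34 for Lrp5, 0.32 for Lrp8, 0.19 for Lrp4, 0.05 for Lrp10 and -0.37 for Lrp1. Of 11573 genes ranked by the same measure, 67 had an r of 0.9 or more, and the 8 named genes most like Lrp2 were Gcnt1 (0.988), which builds branched O-glycans, Frem1 (0.979) and Npnt (0.972), both for extracellular matrix proteins, Map7 (0.973), which binds microtubules, Arsj (0.968), an arylsulfatase, Col11a1 (0.967), a fibrillar collagen chain, Slc40a1 (0.962), the iron exporter ferroportin, and Slc27a6 (0.961), a fatty acid transport protein. The 9 libraries are those of the study's 3 groups and not points of 1 condition, so each r is given as a description. Without irradiated replicate 1 their r stayed between 0.961 and 0.991, but 2 of the 8 remained among the top 8, and by Spearman's rho 5 did.

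Because these genes were picked for their likeness to Lrp2 over the same libraries, the group order they share with it follows from the choice, and their levels are given as a description. Slc27a6 resembled Lrp2 most in size, with 0.110, 0.090 and 0.110 CPM in Vehicle, 7.72, 1.60 and 5.08 under R788 + PD-L1 and 0.811, 3.96 and 3.10 in irradiated tumors. Its Vehicle libraries were below the floor of 3 counts. Npnt rested on a higher base, with means of 7.19 ± 4.57, 47.9 ± 10.5 and 16.4 ± 6.13 CPM (SD, n = 3 each), and Gcnt1 had means of 5.68 ± 1.87, 29.5 ± 9.75 and 13.2 ± 3.28. Arsj and Map7 differed least, with log2 fold changes of 1.45 and 1.51 for R788 + PD-L1 against Vehicle, beside 5.47 for Slc27a6.

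**Figure D4:**
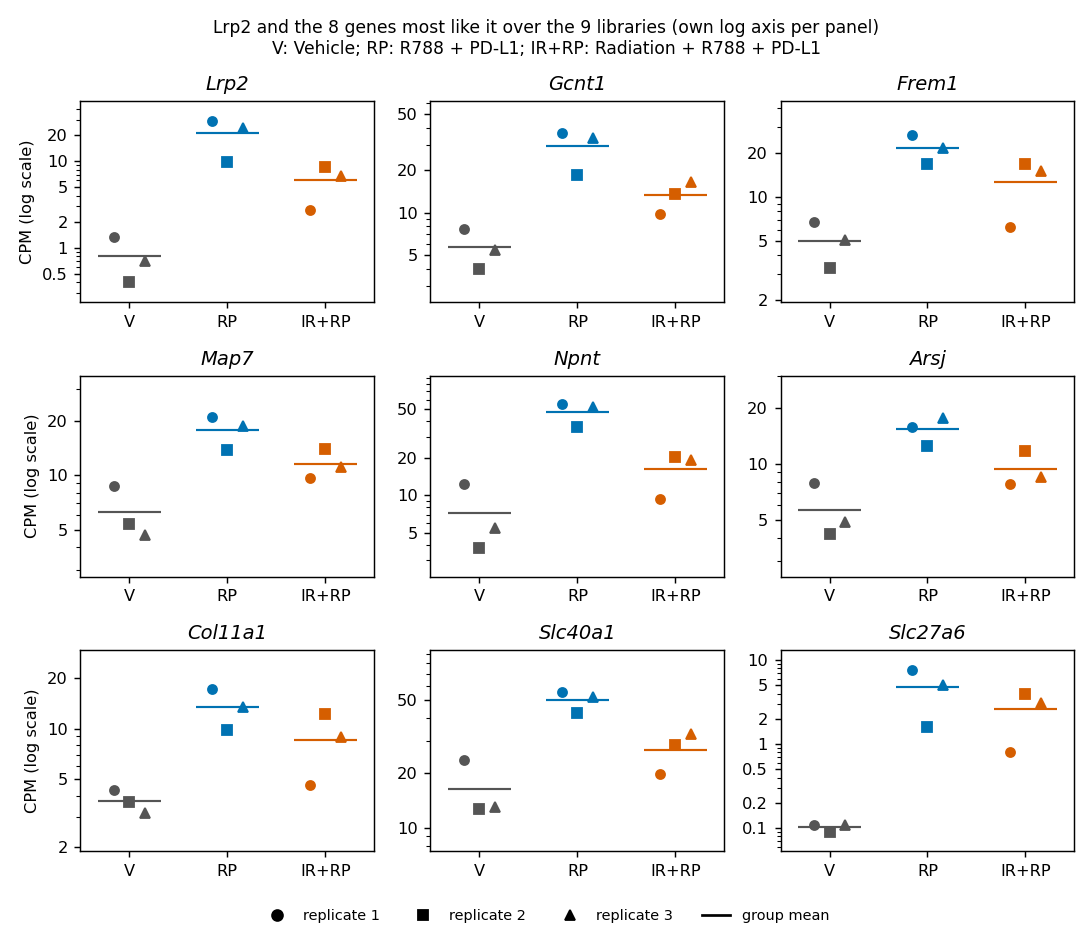
Normalized level (CPM, log axis, own scale in each panel) of Lrp2 and the 8 genes most like it across the 9 libraries, with replicates as symbols and group means as lines. All panels place R788 + PD-L1 highest and Vehicle lowest by mean, an order that the choice by likeness favors.

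The genes beside Lrp2 on chromosome 2 gave no call by edgeR. Of 16 tested genes within 500 kb, 0 were called in any comparison (lowest edgeR adjusted p 0.471, 0.256 and 0.222), where 0.678%, 0.0439% and 0.00628% of all genes were. With so few calls over all genes, 0 of 16 says little about this region. Their median log2 fold changes were -0.20, 0.13 and 0.27. The nearest, Dhrs9, at 19.8 kb, had mean levels of 1.10 CPM in Vehicle, 1.17 under R788 + PD-L1 and 1.40 in irradiated tumors.

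Other proteins with class A repeats gave no call by edgeR. Of 5 tested outside the 9 members, 0 were called in any comparison by edgeR (0.678%, 0.0439% and 0.00628% of all genes). At an unadjusted p under 0.05 there were 1, 1 and 0 (11.7%, 13.2% and 18.4% of all genes), and DESeq2 called 1, 1 and 0 (4.86%, 3.87% and 5.76%). Largest in size against Vehicle were Lrp11, of little-known function, at -1.38 ± 0.33 under R788 + PD-L1 (adjusted p = 0.110) and -1.15 ± 0.33 in irradiated tumors (adjusted p = 0.255), and Sorl1, a sorting receptor of endosomes, at 1.29 ± 0.85 (adjusted p = 0.636) and 1.54 ± 0.85 (adjusted p = 0.427). The last value rested on irradiated replicate 3, and it was -0.38 without that library. Lrp11 was called in 1 of 11 alternative fits in both comparisons against Vehicle (lowest edgeR or DESeq2 adjusted p 0.00197 and 0.025). For irradiated against R788 + PD-L1, Ldlrad4, a regulator of TGF-beta signaling, was 0.61 ± 0.46 (adjusted p = 0.471) and Ldlrad3, a membrane protein with such repeats, was -0.39 ± 0.34 (adjusted p = 0.526). Ldlrad4 was 0.32 without irradiated replicate 3 and 0.31 without R788 + PD-L1 replicate 1, and Ldlrad3 was -0.06 without irradiated replicate 1.

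Genes of cholesterol synthesis and of SREBP2, the transcription factor that responds to low sterol, mostly had negative log2 fold changes under R788 + PD-L1, and 1 of them was called. Of 19 genes, all tested, 18 had a negative log2 fold change against Vehicle, with a median of -0.65 beside -0.02 over all genes, and 13 had groups that did not overlap, all 13 lower, against 16.5% of all genes. Of the 19, 12 had an unadjusted p under 0.05 (11.7% of all genes). DESeq2 called 6 (4.86% of all genes called in either direction), but edgeR called 1 (0.289% of all genes called lower). The called gene, Idi1, an isomerase of the isoprenoid pathway, fell from 109, 131 and 111 CPM in Vehicle to 50.1, 63.9 and 55.4 (log2 fold change -1.06 ± 0.19, edgeR adjusted p = 0.0426). The direction count was 18 or 19 when any 1 library of the pair was left out, although Idi1 was no longer called in any of these 6 fits. In most of them no gene at all was called, and Idi1 ranged from -1.155 to -0.97 over the alternative fits. The summed level of the 19 genes was 1293 to 1344 CPM under R788 + PD-L1, 1747 to 2178 in Vehicle and 1786 to 2208 in irradiated tumors.

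In irradiated tumors the summed level of these 19 genes overlapped that of Vehicle. Against Vehicle 13 were lower, with a median of -0.11. By edgeR or DESeq2 0 were called (0.0439% and 3.87% of all genes), and 0 had an unadjusted p under 0.05 (13.2%). Fdps, farnesyl diphosphate synthase, at 0.75 ± 0.42 (edgeR adjusted p = 0.428), and Dhcr7, the last reductase of the pathway, at -0.72 ± 0.38 (adjusted p = 0.417), were largest in size. Against R788 + PD-L1, 17 of 19 were higher, with a median of 0.75, and 11 had groups that did not overlap, all 11 higher, against 14.2% of all genes. An unadjusted p under 0.05 was found for 11 (18.4% of all genes), 0 were called by edgeR (0.00628%) and 10 by DESeq2 (5.76%). The largest were Fdps at 1.76 ± 0.43 (adjusted p = 0.184) and Msmo1, a sterol oxidase, at 1.43 ± 0.43 (adjusted p = 0.222). Irradiated replicate 1 held 568 CPM of Fdps against 189 and 165 in its group. Without it Fdps was 0.97 and Msmo1 0.81 in this comparison, 18 of 19 were higher and the median was 0.67, and against Vehicle Fdps was -0.01 and Dhcr7 -0.35. The R788 + PD-L1 libraries serve in both comparisons, so these are not independent of each other.

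**Figure D5:**
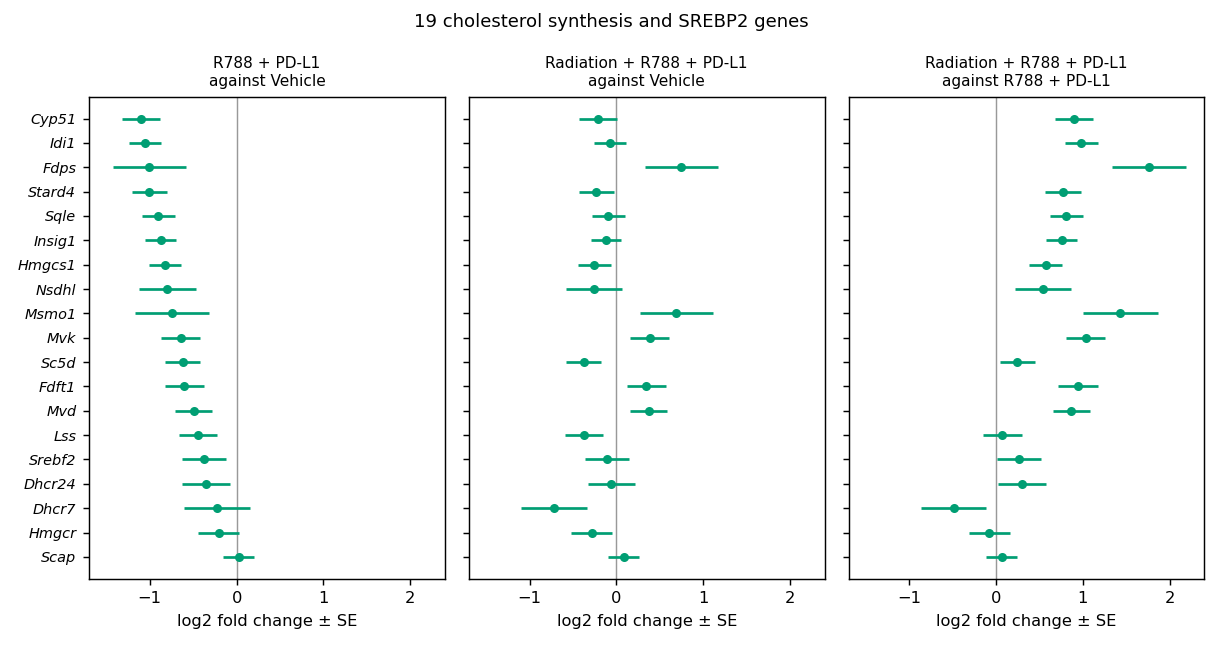
Log2 fold change ± SE (x axis) of 19 cholesterol synthesis and SREBP2 genes in the 3 comparisons, ordered by the first. Points lie left of 0 for 18 of 19 genes in R788 + PD-L1 against Vehicle, on both sides in irradiated against Vehicle, and right of 0 for 17 of 19 in irradiated against R788 + PD-L1.

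Chaperones, adaptors and turnover factors of the receptors gave no call. Of 7 tested, 0 passed in any comparison by edgeR (0.678%, 0.0439% and 0.00628% of all genes). At an unadjusted p under 0.05 there were 1, 2 and 1 (11.7%, 13.2% and 18.4% of all genes), and DESeq2 called 0 (4.86%, 3.87% and 5.76%). All 7 had a positive log2 fold change in irradiated tumors against Vehicle, with a median of 0.33, and 5 or 6 did when any 1 library of the pair was left out. Cubn, 1 of the 7, passed the filter only through treated libraries. Lrpap1, the chaperone that keeps ligands off these receptors during folding, measured 46.3, 33.7 and 44.6 CPM in Vehicle, 50.1, 40.8 and 45.3 under R788 + PD-L1, and 88.7, 61.2 and 57.7 in irradiated tumors. The irradiated libraries lay wholly above the other 6. Its log2 fold change was 0.74 ± 0.22 in irradiated tumors against Vehicle (edgeR adjusted p = 0.268) and 0.61 ± 0.22 against R788 + PD-L1 (adjusted p = 0.234). Dab2, an endocytic adaptor that binds receptor tails, was 0.26 ± 0.72 under R788 + PD-L1 against Vehicle (adjusted p = 0.934), and 0.10 without Vehicle replicate 2 and 0.43 without replicate 3. Snx17, a sorting nexin of receptor recycling, was 0.42 ± 0.24 in irradiated against R788 + PD-L1 tumors (adjusted p = 0.343), and 0.28 without R788 + PD-L1 replicate 2. The values of Lrpap1 and Snx17 against R788 + PD-L1 were 0.40 and 0.21 without irradiated replicate 1.

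Of 13 tested ligands, 0 were called in any comparison by edgeR (0.678%, 0.0439% and 0.00628% of all genes). An unadjusted p under 0.05 was found for 4, 4 and 3 (11.7%, 13.2% and 18.4% of all genes), and DESeq2 called 2, 3 and 2 (4.86%, 3.87% and 5.76%). Sostdc1, a secreted binder of Lrp4, Lrp5 and Lrp6, had 16, 1 and 5 counts in Vehicle, 65, 106 and 77 under R788 + PD-L1 and 40, 54 and 53 in irradiated tumors. No treated library overlapped Vehicle, and the log2 fold changes were 3.07 ± 0.76 (edgeR adjusted p = 0.112) and 2.76 ± 0.75 (adjusted p = 0.222). Sostdc1 passed the filter only with the treated libraries, which favored a higher value there. Sost, for sclerostin, another ligand of the 3 receptors, was -2.49 ± 1.06 under R788 + PD-L1 (adjusted p = 0.388). For irradiated against R788 + PD-L1, Mdk, for the growth factor midkine, was 2.25 ± 1.12 (adjusted p = 0.295), and Clu, for the lipid-carrying chaperone clusterin, was 1.65 ± 0.38 (adjusted p = 0.170). Against Vehicle, Mdk was 1.86 ± 1.11 (adjusted p = 0.447). Without irradiated replicate 1 the Mdk values were 1.29 and 0.91. Without Vehicle replicate 1 the second was 3.71 and that of Sost was -1.64.

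Among 9 tested partners and targets of the Wnt co-receptors, 1 was called, lower under R788 + PD-L1 (0.289% of all genes). Lef1, a transcription factor of the Wnt pathway, fell from 114, 121 and 123 CPM in Vehicle to 55.7, 64.7 and 59.2, a decrease by 0.996 ± 0.167 on the log2 scale (edgeR adjusted p = 0.0390), and 5 of the 9 had an unadjusted p under 0.05. The list did not move one way, since 5 were higher and 4 lower, groups did not overlap for 5 higher and 1 lower, and DESeq2 called 1 higher and 1 lower. In this comparison 11.7% of all genes had an unadjusted p under 0.05, 30.1% did not overlap and DESeq2 called 4.86%. Axin2, a Wnt target named after its values were seen, went the other way from Lef1, from 8.06, 5.52 and 5.43 CPM in Vehicle to 15.7, 12.7 and 12.1, without a call (1.09 ± 0.45, edgeR adjusted p = 0.384). The other 2 comparisons gave 0 calls by edgeR (0.0439% and 0.00628% of all genes). At an unadjusted p under 0.05 there were 0 and 2 genes (13.2% and 18.4% of all genes), and DESeq2 called 0 and 1 (3.87% and 5.76%). Nkd1 and Nkd2, feedback inhibitors that bind Dishevelled, were lower in irradiated than R788 + PD-L1 tumors at -0.87 ± 0.87 (adjusted p = 0.584) and -1.74 ± 0.64 (adjusted p = 0.233), and against Vehicle Nkd1 was 1.67 with an SE of 1 (adjusted p = 0.447) and Notum, which removes the lipid of Wnt proteins, 0.65 ± 0.35 (adjusted p = 0.417). Against Vehicle Nkd1 was 0.91 without irradiated replicate 3 and 1.05 without Vehicle replicate 2, and Notum was 0.43 without irradiated replicate 1.

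Of 8 tested genes of hedgehog reception, 1 was called, higher under R788 + PD-L1 (0.389% of all genes). Hhip, a membrane decoy for hedgehog ligands, rose from 4.09, 4.13 and 3.62 CPM in Vehicle to 16.8, 9.10 and 15.9, with a log2 fold change of 1.82 ± 0.31 (edgeR adjusted p = 0.0398). In irradiated tumors it measured 22.6, 14.6 and 16.9 CPM, at 2.19 ± 0.31 against Vehicle (adjusted p = 0.0605). The other 2 comparisons gave 0 calls by edgeR (0.0439% and 0.00628% of all genes). At an unadjusted p under 0.05 there were 2 and 1 genes (13.2% and 18.4% of all genes), and DESeq2 called 1 and 0 (3.87% and 5.76%). Gli2, a hedgehog transcription factor, was -1.18 ± 0.52 in irradiated against Vehicle (adjusted p = 0.376), and Ptch1, the hedgehog receptor, and Smo, its signaling partner, were -0.72 ± 0.27 (adjusted p = 0.238) and -0.64 ± 0.66 (adjusted p = 0.601) in irradiated against R788 + PD-L1. Without irradiated replicate 1, Gli2 was -0.74, Ptch1 -0.44 and Smo -0.23, and Smo was -0.16 without R788 + PD-L1 replicate 2. Shh itself had 0 counts in all 9 libraries. Leaving out 1 library of the pair ended the Lef1 call in 6 of 6 fits and the Hhip call in 5 of 6. In most of those fits no gene at all was called. Over the alternative fits of this comparison the log2 fold change was -1.06 to -0.95 for Lef1 and 1.66 to 2.05 for Hhip.

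Of 47 tested cell type markers in 10 lists, edgeR called 1, 0 and 0 in the 3 comparisons (0.678%, 0.0439% and 0.00628% of all genes). An unadjusted p under 0.05 was found for 13, 15 and 8 of them, against 11.7%, 13.2% and 18.4% of all genes. DESeq2 called 7 (5 higher and 2 lower), 5 and 2, against 4.86%, 3.87% and 5.76% of all genes. The edgeR call was Isl1, a homeobox factor of sympathetic neuroblasts, in R788 + PD-L1 against Vehicle (0.389% of all genes called higher), and it was lost in 4 of 6 fits that left out 1 library of the pair (Vehicle replicate 2 or 3, R788 + PD-L1 replicate 1 or 3). In those 4 fits no gene at all was called, so the loss is not particular to Isl1. Isl1 had 0 counts in all 3 Vehicle libraries, 80, 48 and 63 under R788 + PD-L1 and 14, 27 and 21 in irradiated tumors. It passed the filter on low counts only through treated libraries, so a higher value there was favored in advance. Taken against the Vehicle floor of 3 counts per library, its mean of 2.65 CPM under R788 + PD-L1 was at least 17.1-fold higher and its mean of 1.12 CPM in irradiated tumors at least 7.23-fold higher. The other noradrenergic markers did not all rise with Isl1. Of 6 tested, 4 were higher and 2 lower under R788 + PD-L1 than in Vehicle, and DESeq2 called 1 higher and 2 lower. Ddc fell from 19.7, 14.3 and 15.8 CPM in Vehicle to 7.72, 3.44 and 5.16, without an edgeR call.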

How the data were processed

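RNA from 9 whole NB9464 tumors, 3 a group, was sequenced after polyA selection. The extraction text of the labels names cultured macrophages, whereas tissue and title give whole tumor, and the latter was taken. The authors deposited 1 table of expected counts per gene symbol, estimated with Salmon 1.4.0 and, per the submitters' processing notes, STAR 2.6.1d, SAMtools 1.9, Picard 2.26 and MultiQC 1.11 on mm10. The study's methods and the labels differ on the sequencer and on single or paired reads. Nothing says whether counting used strand or whether a gene's count was corrected for length, and estimated counts divide reads between similar genes.

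These estimated counts, whole numbers as deposited, were tested with edgeR 4.0.16 in R 4.3.3 (filterByExpr with a minimum count of 10, TMM factors, robust quasi-likelihood fit over all 9 libraries, 1 coefficient a group, Benjamini-Hochberg over 15931 genes, called at an adjusted p under 0.05). The fit was tested on simulated data first. DESeq2 1.42.0, the study's tool, served as an alternative, as did RLE factors, no filter, the 6 libraries compared alone, a replicate block and leaving out each library. CPM used TMM-scaled library sizes, and CPM per kb divided them by the union of exons in GENCODE M21, which held 98.9% of the symbols with a count. With 3 counts taken as the floor, precision at low levels was 0.115 to 0.221 CPM, counting error only. Nothing beyond the sample labels says that replicates are separate mice, so p-values measure the spread between these samples. Groups came from the treatment label, and replicate numbers did not pair the samples. The genes named were all 9 members, called genes of each list (at most 5) or else the 2 largest in size for the 6 pathway lists, the 8 genes most like Lrp2 by Pearson's r of log2 CPM (prior count 2, mean count at least 50, predicted genes skipped) and genes within 500 kb of it. Isl1 was named as a called marker. The members and lists were chosen with earlier results of these data known. Promoters and motifs came from RefSeq (GRCm38.p6). A few genes of these lists are not reported here, and the counts of the lists leave them out.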

Additional observations from a re-analysis of the deposited data

How the results depend on the processing

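Of the 7 other members that passed the filter, 0 were called in any of 231 alternative values (lowest edgeR or DESeq2 adjusted p 0.119), and 222 of these kept their direction. Lrp2 kept its direction in 33 of 33, at 4.36 to 5.26, 2.55 to 3.45 and -2.15 to -1.45 in the 3 comparisons. The other 9 values changed sign, always when 1 library was left out and always for small differences. Over these fits the log2 fold change for R788 + PD-L1 against Vehicle ranged from -0.037 to 0.29 for Lrp5 and from -0.14 to 0.0025 for Lrp10. For irradiated against Vehicle it ranged from -0.015 to 0.48 for Lrp1, from -0.30 to 0.091 for Lrp6, from -0.22 to 0.62 for Lrp8 and from -0.26 to 0.080 for Lrp10, and for irradiated against R788 + PD-L1 from -0.50 to 0.31 for Lrp8 and from -0.18 to 0.13 for Lrp10. Of the named genes of other lists, Sorl1 (-0.38 to 2.08) and Fdps (-0.0145 to 1.05) changed sign in irradiated against Vehicle. The cause of these shifts was not tested.

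The number of genes called depended strongly on the fit, so the background shares above do too. For R788 + PD-L1 against Vehicle it was 108, and 770 with DESeq2, 199 without the filter, 594 with the 6 libraries alone and 0 to 75 with 1 library left out (0 without Vehicle replicate 2 or 3 or R788 + PD-L1 replicate 1 or 3, 34 without R788 + PD-L1 replicate 2). For irradiated against Vehicle it was 7, and 613, 70, 1 and 1 to 57 (57 without irradiated replicate 1). For irradiated against R788 + PD-L1 it was 1, and 825, 24, 0 and 0 to 21 (21 without irradiated replicate 1). Same-numbered libraries deviated together with correlations from -0.05 to 0.23, so the numbers were not taken as pairs. With a replicate block 0, 3 and 0 genes were called in the 3 comparisons, 1775, 1949 and 2789 at an unadjusted p under 0.05, and again 0 members. Of the 8 genes most like Lrp2, 2 and 5 remained without irradiated replicate 1 and by Spearman's rho.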
